A study of Mus musculus with 6 samples.

Results

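Blood coagulation and fibrinolysis genes were examined in macrophages sorted from steatotic mouse liver, in mice with and without Egr2 in their myeloid cells. The 10 genes were chosen by name, with earlier results of the same libraries known: F10, F7, F13a1, F3, Thbd, Tfpi, Procr, Plau, Plaur and Vkorc1. All 10 were among the 13886 genes of the table. Each of the 6 libraries was made from macrophages of 1 mouse by bulk RNA-seq, 3 from Egr2fl/fl mice and 3 from Lyz2cre/+.Egr2fl/fl mice. In the latter, Cre recombinase inserted at Lyz2, a gene active in monocytes, macrophages and neutrophils, removes the loxP-flanked Egr2 gene. All mice were fed CDA-HFD, a high-fat diet low in choline that causes steatohepatitis (MASH). Egr2fl/fl mice carry the loxP sites and no Cre, so the loss of Egr2 and the presence of Cre at Lyz2 cannot be told apart here. The labels give no weeks of diet, age, sex or strain background for these samples. The study's methods describe male young adult mice, and a sort of CD11b+ Ly6G- Ly6C-low F4/80+ cells.

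Coagulation is a cascade of plasma proteases, most of them made by hepatocytes, that is started when factor VII meets tissue factor on a cell surface and runs through factor X to thrombin and fibrin. Factors VII and X need vitamin K for the carboxylation that lets them bind membranes. Macrophages can make factors VII, X and XIII-A themselves, carry the urokinase receptor that focuses plasmin formation on their surface, and so can take part in fibrin turnover in an injured, fibrosing liver.

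Values are TPM (transcripts per kilobase, rescaled to a common library total), which can be compared between genes. Differences are Lyz2cre/+.Egr2fl/fl minus Egr2fl/fl on the log2(TPM + 1) scale, fitted with limma over the 13777 genes that averaged 1 TPM or more. They are given with the standard error (SE) and the 95% interval of that fit. A gene passed the test when its Benjamini-Hochberg adjusted p over all those genes was below 0.05. Since the 10 genes were chosen with this comparison known, their differences are a description and no p is given for them. Whether 1 of them passed, in any fit, is a description too.

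Egr2 itself checked the labels. Its level was 122.6, 120.2 and 126.1 TPM in Egr2fl/fl macrophages and 9.08, 9.64 and 10.5 TPM in Lyz2cre/+.Egr2fl/fl macrophages, a difference of -3.53 ± 0.08 (limma, adjusted p = 5.75e-06). The smallest whole reads that fit the TPM steps summed to 6497770 to 8569062 per library. All 12 macrophage markers of a fixed list were listed, 4 of them higher in Lyz2cre/+.Egr2fl/fl, 1 lower and 7 not past the threshold. Without overlap 7 were higher and 1 lower, beside shares of 17% and 8.27% over all genes tested. The sums overlapped, at 27730 to 31060 TPM in Egr2fl/fl and 27700 to 28150 TPM in Lyz2cre/+.Egr2fl/fl. They include the 1 lower marker, which had the highest level of the 12, so they do not show that the other markers were alike. Adgre1, which encodes F4/80, was at 872.7 to 968.8 TPM in Egr2fl/fl and 1204 to 1279 TPM in Lyz2cre/+.Egr2fl/fl. The 1 lower marker, named after its values were seen, was Lyz2, the lysozyme gene that carries Cre in the Lyz2cre/+.Egr2fl/fl mice, at 9945 to 11610 TPM and 6375 to 6608 TPM (limma, adjusted p = 0.0013). Egr2fl/fl replicate 3 stood apart in hepatocyte transcripts, and the Lyz2cre/+.Egr2fl/fl libraries held more endothelial and Kupffer cell transcripts. Those values are given beside the genes they touch. Of 10 neutrophil markers 3 were listed, with sums of 8.17 to 19.3 TPM in Egr2fl/fl and 3.44 to 6.67 TPM in Lyz2cre/+.Egr2fl/fl. Of these, S100a8 and S100a9, 2 calprotectin genes named after their values were seen, were lower (limma, adjusted p = 0.0324 and 0.0239) on 35 and 17 reads over the 6 libraries. In bulk RNA, fewer cells of a type and less RNA per cell cannot be told apart.

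Of the 10 genes, F10, F7 and Procr were lower in Lyz2cre/+.Egr2fl/fl macrophages, Tfpi was higher, and 6 did not pass the test. The shares over all genes tested were 1.87% lower and 4.38% higher, 6.24% in all. The factor X and factor VII transcripts had the greatest differences among the 10. The genotypes did not overlap for 4 genes that were lower (F10, F7, Procr and Plaur) and for Tfpi, which was higher. Over all genes the shares without overlap were 8.27% lower and 17% higher. The median difference of the 10 genes was -0.27, beside 0.04 for all genes tested.

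F10 encodes factor X, the zymogen of the protease that converts prothrombin to thrombin. It was at 138.5, 126.1 and 128.8 TPM in Egr2fl/fl and at 28.7, 46.5 and 22.7 TPM in Lyz2cre/+.Egr2fl/fl. The highest Lyz2cre/+.Egr2fl/fl library, replicate 2, lay well below the lowest Egr2fl/fl library. Mean F10 was 131.1 ± 6.52 TPM (SD, n = 3) in Egr2fl/fl and 32.6 ± 12.3 TPM in Lyz2cre/+.Egr2fl/fl, 4.02-fold lower, with a difference of -2.04 ± 0.23 (95% interval -2.58 to -1.49). It passed without any 1 of the 6 libraries, at -2.31 to -1.81.

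F7 encodes factor VII, the protease that tissue factor activates. It was at 98.9, 82.6 and 84.0 TPM in Egr2fl/fl and at 19.8, 28.0 and 17.6 TPM in Lyz2cre/+.Egr2fl/fl. As for F10, Lyz2cre/+.Egr2fl/fl replicate 2 was the highest of its genotype and the groups did not overlap. Mean F7 was 88.5 ± 9.05 TPM against 21.8 ± 5.46 TPM, with a difference of -1.99 ± 0.17 (95% interval -2.39 to -1.60), and it passed without any 1 library, at -2.18 to -1.86. The ratio of F10 to F7 was 1.40, 1.53 and 1.53 in Egr2fl/fl and 1.45, 1.66 and 1.29 in Lyz2cre/+.Egr2fl/fl, so the groups overlapped in this ratio.

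**Figure D1:**
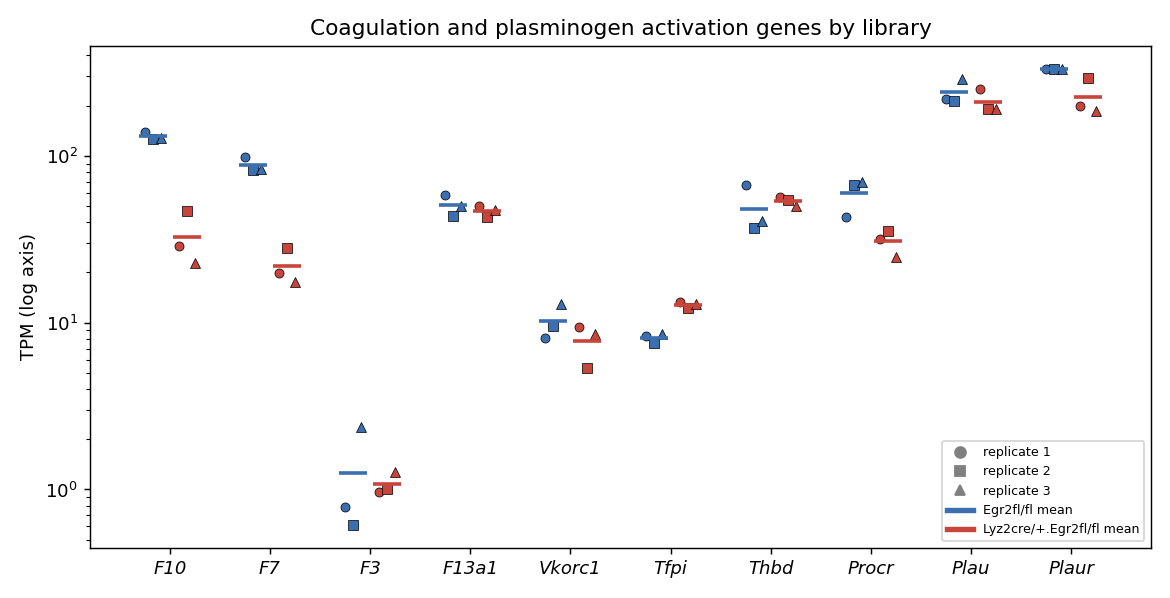
TPM of the 10 genes in each library on a log axis, with 1 point per library (its shape gives the replicate, its colour the genotype, 3 Egr2fl/fl and 3 Lyz2cre/+.Egr2fl/fl) and a short line at each mean. F10 (131.1 against 32.6 TPM) and F7 (88.5 against 21.8 TPM) have separate groups, while the points of Plau, Thbd, F13a1, Vkorc1 and F3 overlap.

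F7 and F10 are adjacent on chromosome 8, on the same strand. In GENCODE vM21 on GRCm38, F7 spans chr8:13026034-13035809 and F10 spans chr8:13037308-13056676, with 1498 bases between them and no annotated gene overlapping either. The 250 bases before each start, from the RefSeq promoter table on GRCm38.p6, are shown because these are the genes with the greatest differences, and that of Plaur because, of the 8 genes with a window, it alone held an Egr motif. Capitals mark the motifs searched.
F10 promoter, chr8:13037058-13037307, plus strand: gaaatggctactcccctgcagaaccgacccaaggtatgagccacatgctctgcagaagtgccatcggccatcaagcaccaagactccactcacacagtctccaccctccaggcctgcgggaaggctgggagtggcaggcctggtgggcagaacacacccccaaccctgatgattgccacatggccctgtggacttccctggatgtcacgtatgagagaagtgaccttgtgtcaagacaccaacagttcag
F7 promoter, chr8:13025784-13026033, plus strand: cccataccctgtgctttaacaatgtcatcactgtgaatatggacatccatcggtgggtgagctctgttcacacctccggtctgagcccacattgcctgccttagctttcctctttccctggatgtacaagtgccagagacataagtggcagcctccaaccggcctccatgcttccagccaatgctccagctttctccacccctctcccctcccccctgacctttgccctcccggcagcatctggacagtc
Plaur promoter, chr7:24462233-24462482, plus strand: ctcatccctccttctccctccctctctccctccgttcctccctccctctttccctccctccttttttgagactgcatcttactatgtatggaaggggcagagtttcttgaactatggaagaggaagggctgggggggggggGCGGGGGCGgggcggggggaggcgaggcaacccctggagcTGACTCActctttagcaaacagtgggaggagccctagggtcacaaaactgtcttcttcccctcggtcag
Both strands were searched for the Egr motifs GCGTGGGCG and GCGGGGGCG, found in 0.612% and 2.91% of all 32851 promoter windows, and, added after the windows had been read, for the AP-1 motif TGANTCA (7.81%) and the PU.1 motif GAGGAAGT (3.2%). The motifs do not overlap each other in the sequences shown. The windows of F10, F7, Tfpi and Vkorc1 held none of these letters. The Plaur window held GCGGGGGCG at position -109 from the start and an AP-1 match at -69. Of the others, Procr held 1 AP-1 match at -154, F3 held 2, at -146 and -135, and F13a1 had a PU.1 match 14 bases after its second start. Thbd and Plau had no window in the table.

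The flanking genes on chromosome 8 were compared in the same way, and whether they share a difference with F7 and F10 was not tested. Mcf2l, which ends 5128 bases before F7, fell from 5.91, 9.49 and 6.55 TPM to 2.02, 3.23 and 2.24 TPM, by -1.24 ± 0.23 (limma, adjusted p = 0.0222). Its groups did not overlap. It did not pass without Egr2fl/fl replicate 2 or 3 or without Lyz2cre/+.Egr2fl/fl replicate 1 or 3 (adjusted p 0.0618 to 0.0851), and it overlaps another listed gene, Gm15347. Proz, which encodes the vitamin K-dependent protein Z and begins 4237 bases after F10, was at 4.12, 4.50 and 5.79 TPM and at 3.95, 1.68 and 3.06 TPM, a difference of -0.61 ± 0.26 (limma, adjusted p = 0.262). Its groups did not overlap either, and it did not pass. The next genes, Pcid2, Cul4a, Lamp1 and Grtp1, differed by -0.05 to 0.06. Of the 6 neighbours 1 passed, as lower, and 2 were lower without overlap. The shares over all genes tested were 1.87% and 8.27%.

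**Figure D2:**
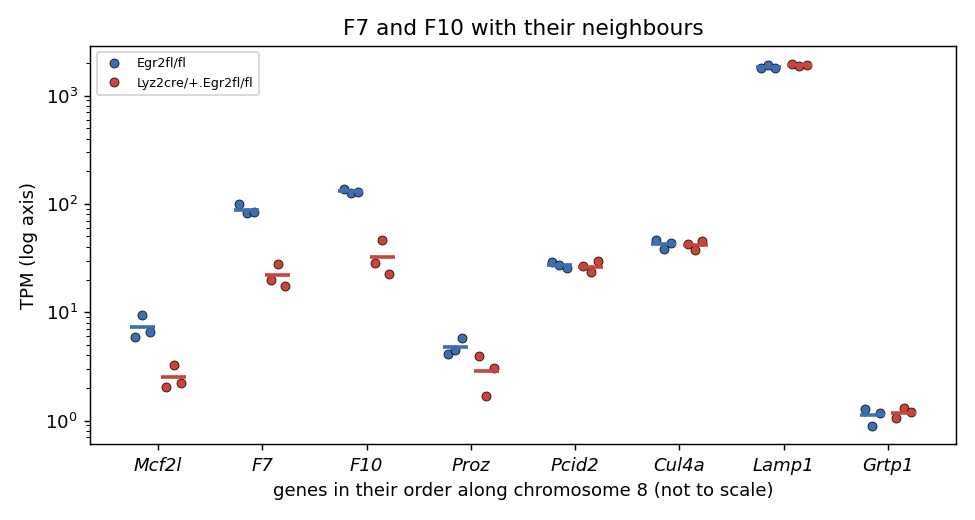
TPM on a log axis of F7, F10 and their 6 listed neighbours, in their order along chromosome 8 and not to scale, with 1 point per library and a short line at each mean. Mcf2l, F7, F10 and Proz have separate groups with Lyz2cre/+.Egr2fl/fl lower, while the points of Pcid2, Cul4a, Lamp1 and Grtp1 overlap.

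Hepatocytes are the main source of plasma factors VII and X, so hepatocyte transcripts were compared with them library by library. The 16 listed hepatocyte markers, of 17, summed to 281.2, 146.9 and 834.3 TPM in Egr2fl/fl and to 237.8, 149.9 and 326.1 TPM in Lyz2cre/+.Egr2fl/fl. Alb, which encodes albumin, was at 117.1, 49.1 and 365.1 TPM and at 95.6, 63.2 and 169.5 TPM. Apoa1 and Ttr, both secreted hepatocyte products, were also highest in Egr2fl/fl replicate 3, at 79.3 and 33.2 TPM. None of the 16 markers passed the test, and the groups overlapped in the sum. F7 and F10 were highest in Egr2fl/fl replicate 1, and without Egr2fl/fl replicate 3 their differences were -2.03 and -2.05. The part of hepatocyte transcripts in the F7 and F10 differences was not tested.

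**Figure D3:**
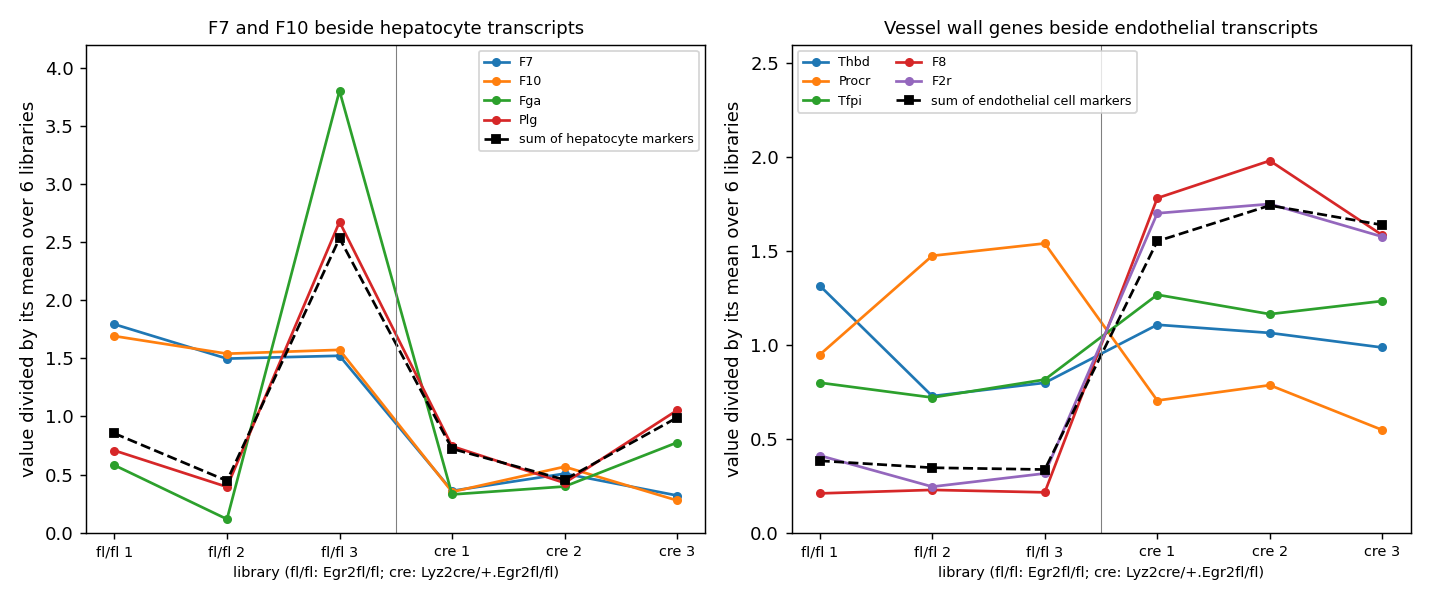
Each gene or marker sum divided by its mean over the 6 libraries, for F7 and F10 beside hepatocyte transcripts (left) and for vessel wall genes beside endothelial transcripts (right). Lines only join the libraries of one gene. The hepatocyte sum is highest in Egr2fl/fl replicate 3 (834.3 TPM), F7 and F10 are lower in all 3 Lyz2cre/+.Egr2fl/fl libraries, and F8 and F2r are higher where the endothelial sum is higher. Their relation was not tested.

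The genes whose values followed F10 and F7 most closely over the 6 libraries were named by Pearson's r of log2(TPM + 1) among the 10209 genes averaging 5 TPM or more. For F10 these were Rai14 (r = 0.996), F7 (0.995) and Slc7a11 (0.994). Rai14 encodes an actin-associated protein and Slc7a11 a cystine transporter. For F7 they were F10 (0.995), Cox6c (0.994), a subunit of cytochrome c oxidase, and Rnf149 (0.994), a ubiquitin ligase. The libraries share the genotype difference, and with 6 points such values are a description only. The hepatic lipid-associated macrophage markers, 10 of 10 listed, summed to 8112 to 8585 TPM in Egr2fl/fl and 6000 to 6524 TPM in Lyz2cre/+.Egr2fl/fl, with 7 lower. The Kupffer cell markers, 10 of 10 listed, summed to 1742 to 2317 TPM and 5070 to 6385 TPM, with 9 higher. The study uses F10 itself as a marker of hepatic lipid-associated macrophages, though F10 is not in the list summed here. It reports a smaller proportion of these cells among monocyte-derived macrophages in Lyz2cre/+.Egr2fl/fl mice. The part of the lipid-associated macrophage, Kupffer cell and neutrophil transcripts in the F7 and F10 differences was not tested.

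F3 encodes tissue factor, the receptor that starts the cascade. It was at 0.787, 0.614 and 2.36 TPM in Egr2fl/fl and at 0.966, 1.00 and 1.28 TPM in Lyz2cre/+.Egr2fl/fl. These values rest on 3 to 13 reads per library, and the groups overlapped. The difference was -0.04 ± 0.35 (95% interval -0.86 to 0.79), so no difference was detectable at this depth.

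F13a1 encodes the A subunit of factor XIII, the transglutaminase that cross-links fibrin. It was at 58.4, 43.5 and 49.9 TPM in Egr2fl/fl and at 50.1, 42.9 and 47.4 TPM in Lyz2cre/+.Egr2fl/fl. The groups overlapped, with a difference of -0.10 ± 0.12 (95% interval -0.38 to 0.17). Closest to it over the libraries were Arih1 (r = 0.992), a ubiquitin ligase, Borcs5 (0.987), part of a lysosome positioning complex, and Larp4 (0.985), an RNA-binding protein. F13a1 is also abundant in monocytes and platelets. The 8 listed monocyte markers, of 9, summed to 536.1 to 596.5 TPM and 439.9 to 608.2 TPM, and none passed. Of the monocyte genes, Ccr2, a chemokine receptor, was at 254.8 to 300.8 TPM and 189.0 to 283.8 TPM, and Ly6c2, which encodes Ly6C, at 13.7 to 20.7 TPM and 8.20 to 14.6 TPM. Of 12 platelet markers 4 were listed, with sums of 347.2 to 409.0 TPM and 517.7 to 555.8 TPM. Pf4, platelet factor 4, made up most of each sum, at 238.3 to 305.4 TPM in Egr2fl/fl and 273.6 to 330.6 TPM in Lyz2cre/+.Egr2fl/fl, Ppbp was at 1.34 to 5.64 TPM over all libraries, and Itga2b was not listed. Only Clec1b of the 4 passed, which encodes the receptor CLEC-2 of platelets and also of Kupffer cells and is named after its values were seen. It was at 95.3 to 104.6 TPM and 221.6 to 236.8 TPM (limma, adjusted p = 0.00029).

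The anticoagulant genes Tfpi, Procr and Thbd did not share a direction. Tfpi encodes tissue factor pathway inhibitor, which blocks factor Xa and the factor VIIa-tissue factor complex. It was at 8.36, 7.53 and 8.53 TPM in Egr2fl/fl and at 13.3, 12.2 and 12.9 TPM in Lyz2cre/+.Egr2fl/fl. Every Lyz2cre/+.Egr2fl/fl library was above every Egr2fl/fl library. The means were 8.14 ± 0.535 TPM and 12.8 ± 0.553 TPM (SD, n = 3), 1.57-fold higher, with a difference of 0.59 ± 0.11 (95% interval 0.34 to 0.84). With 1 library fewer it passed only without Lyz2cre/+.Egr2fl/fl replicate 2, and over the 6 leave-outs the difference stayed at 0.54 to 0.63.

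Procr encodes the endothelial protein C receptor, which presents protein C for activation. It was at 43.0, 66.9 and 69.9 TPM in Egr2fl/fl and at 31.9, 35.6 and 24.8 TPM in Lyz2cre/+.Egr2fl/fl. The groups did not overlap, and Egr2fl/fl replicate 1 was nearest to the other genotype. Means were 59.9 ± 14.8 TPM and 30.8 ± 5.51 TPM, 1.95-fold lower, with a difference of -0.92 ± 0.21 (95% interval -1.41 to -0.43). With 1 library fewer it passed only without Egr2fl/fl replicate 1, at -1.14. Over the 6 leave-outs it stayed at -1.14 to -0.78, and it also missed the threshold under both rescalings of the libraries. The part of the lipid-associated macrophage transcripts, lower in the same libraries, in the Procr difference was not tested.

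Thbd encodes thrombomodulin, which turns thrombin towards protein C activation. It was at 67.2, 37.1 and 40.7 TPM in Egr2fl/fl and at 56.5, 54.3 and 50.4 TPM in Lyz2cre/+.Egr2fl/fl. Egr2fl/fl replicate 1 was the highest of all 6 libraries and the other 2 of that genotype were the lowest. The difference was 0.20 ± 0.21 (95% interval -0.29 to 0.68), and without Egr2fl/fl replicate 1 it passed, at 0.45. The ratio of Procr to Thbd was 0.640 in that library, against 1.80 and 1.72 in the other Egr2fl/fl libraries and 0.565, 0.656 and 0.493 in Lyz2cre/+.Egr2fl/fl.

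Thbd, Tfpi and Procr are also genes of vascular endothelium, and endothelial transcripts differed between the genotypes. All 20 markers of a fixed endothelial list were listed and rose, from sums of 182.9 to 208.2 TPM in Egr2fl/fl to 844.6 to 948.1 TPM in Lyz2cre/+.Egr2fl/fl, a ratio of the means of 4.63. Pecam1, which encodes the adhesion molecule CD31, was at 8.06 to 14.3 TPM and 35.2 to 44.1 TPM. Cdh5, VE-cadherin, was at 31.7 to 38.3 TPM and 118.2 to 137.0 TPM. The VEGF receptor gene Kdr was at 6.07 to 7.41 TPM and 31.7 to 37.8 TPM, and the scavenger receptor gene Stab2 at 9.94 to 10.7 TPM and 44.0 to 57.6 TPM. The higher Tfpi went with these values and the lower Procr against them, and their part in either result was not tested.

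On the fibrinolytic side the activator gene did not pass. Plau encodes urokinase, the protease that converts plasminogen to plasmin. It was at 219.0, 214.1 and 288.0 TPM in Egr2fl/fl and at 251.7, 190.0 and 190.0 TPM in Lyz2cre/+.Egr2fl/fl. The groups overlapped, with means of 240.4 ± 41.3 TPM and 210.5 ± 35.6 TPM (SD, n = 3) and a difference of -0.19 ± 0.15 (95% interval -0.54 to 0.16).

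Plaur encodes the urokinase receptor. It was at 329.9, 333.1 and 331.2 TPM in Egr2fl/fl and at 198.3, 291.9 and 185.5 TPM in Lyz2cre/+.Egr2fl/fl. The Egr2fl/fl libraries were close together, with a coefficient of variation of 0.495% against 25.8% in Lyz2cre/+.Egr2fl/fl, and the groups did not overlap. Whether the spread differed between the genotypes was not tested. As for F10 and F7, replicate 2 was the highest Lyz2cre/+.Egr2fl/fl library. Means were 331.4 ± 1.64 TPM and 225.2 ± 58.1 TPM, 1.47-fold lower, with a difference of -0.58 ± 0.16 (95% interval -0.96 to -0.21) that did not pass. It passed without Lyz2cre/+.Egr2fl/fl replicate 2, at -0.79. The ratio of Plaur to Plau was 1.51, 1.56 and 1.15 in Egr2fl/fl and 0.788, 1.54 and 0.976 in Lyz2cre/+.Egr2fl/fl, and overlapped. The part of the lipid-associated macrophage transcripts, lower in the same libraries, in the Plaur difference was not tested.

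Vkorc1 encodes the vitamin K epoxide reductase that recycles vitamin K for factors VII and X. It was at 8.07, 9.57 and 12.9 TPM in Egr2fl/fl and at 9.47, 5.35 and 8.54 TPM in Lyz2cre/+.Egr2fl/fl. The groups overlapped, with a difference of -0.36 ± 0.24 (95% interval -0.92 to 0.20). The value is uncertain, as it rests on 12 to 32 reads per library and Vkorc1 shares its strand with an overlapping gene, Gm21974.

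In Egr2fl/fl macrophages the order of mean TPM was Plaur, Plau, F10, F7, Procr, F13a1, Thbd, Vkorc1, Tfpi and F3. Neighbours in this order were apart in every library, except that Procr, F13a1 and Thbd overlapped, as did Vkorc1 and Tfpi. In Lyz2cre/+.Egr2fl/fl macrophages the order was Plaur, Plau, Thbd, F13a1, F10, Procr, F7, Tfpi, Vkorc1 and F3. There Plaur overlapped Plau, and each of F13a1, F10 and Procr overlapped the next, while the remaining neighbours were apart. F10 and F7 thus stood above F13a1 in Egr2fl/fl in mean level and below it in Lyz2cre/+.Egr2fl/fl.

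The rest of the coagulation and fibrinolysis system was taken from a list of 70 further genes, of which 48 were listed and tested. Of these 5 were higher in Lyz2cre/+.Egr2fl/fl, 3 were lower and 40 did not pass, so 16.7% were called. The list was also chosen with earlier results of these libraries known, so its counts and adjusted p values are a description. Over all genes tested 4.38% were higher and 1.87% lower, 6.24% in all, and these shares also stand beside the counts for parts of the list below. The median difference was -0.11, beside 0.04 for all genes tested. The count of higher genes was 3 without Egr2fl/fl replicate 2, 2 without Lyz2cre/+.Egr2fl/fl replicate 1 and 3 without Lyz2cre/+.Egr2fl/fl replicate 3. Among plasma factors made by hepatocytes, 16 of 25 were listed and 1 passed. Pros1, which encodes the protein C and TFPI cofactor protein S, rose from 39.8, 40.7 and 33.8 TPM to 57.7, 53.6 and 62.5 TPM, by 0.59 ± 0.10 (limma, adjusted p = 0.0142), with no overlap. It did not pass without Lyz2cre/+.Egr2fl/fl replicate 1 or 3 (limma, adjusted p = 0.0607 and 0.0527). Pros1 was lowest in Egr2fl/fl replicate 3, where the hepatocyte marker sum was highest. The Lyz2cre/+.Egr2fl/fl libraries, where Pros1 was higher, also held more endothelial and Kupffer cell transcripts, whose part was not tested. Of the 16, 13 were highest in Egr2fl/fl replicate 3, as the hepatocyte markers were. Fga, which encodes a fibrinogen chain, was at 2.55, 0.509 and 16.7 TPM and at 1.44, 1.74 and 3.40 TPM. Plg, plasminogen, was at 2.24, 1.25 and 8.49 TPM and at 2.36, 1.36 and 3.34 TPM, and F5, factor V, differed by -0.02 ± 0.43.

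Of 14 plasminogen activators, inhibitors and receptors, 10 were listed and 3 were lower. Anxa2 and S100a10 encode the subunits of a plasminogen and tPA-binding complex on the cell surface. Anxa2 fell from 636.8, 612.2 and 632.6 TPM to 460.3, 472.6 and 456.1 TPM, by -0.44 ± 0.04 (limma, adjusted p = 0.00199). S100a10 fell from 203.2, 190.5 and 206.0 TPM to 159.2, 152.2 and 157.1 TPM, by -0.35 ± 0.05 (limma, adjusted p = 0.00972). Both had separate groups and passed without any 1 library. Itgb2, the beta chain of the integrin Mac-1 that pairs with the urokinase receptor, fell from 1155, 1146 and 1170 TPM to 791.9, 805.5 and 747.0 TPM, by -0.57 ± 0.04 (limma, adjusted p = 0.000911), and also passed without any 1 library. Itgam, the alpha chain of Mac-1, differed by -0.35 ± 0.14 (limma, adjusted p = 0.239). Itgb2 is also the beta chain of other integrins. Their alpha chain gene Itgax, which encodes CD11c, is named after its values were seen. Its mean was 456.6 TPM in Egr2fl/fl and 174.1 TPM in Lyz2cre/+.Egr2fl/fl, a difference of -1.38 ± 0.07 (limma, adjusted p = 0.00029). Eno1, an enolase that binds plasminogen at the cell surface, and Lrp1, which clears protease-inhibitor complexes, differed by -0.14 ± 0.05 (limma, adjusted p = 0.187) and 0.18 ± 0.12 (limma, adjusted p = 0.481). Plat, the tissue plasminogen activator gene, was not listed. Lipid-associated macrophage markers were lower in the same libraries, with sums of 8112 to 8585 TPM in Egr2fl/fl and 6000 to 6524 TPM in Lyz2cre/+.Egr2fl/fl. The part of these transcripts in the Anxa2, S100a10 and Itgb2 differences was not tested.

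**Figure D4:**
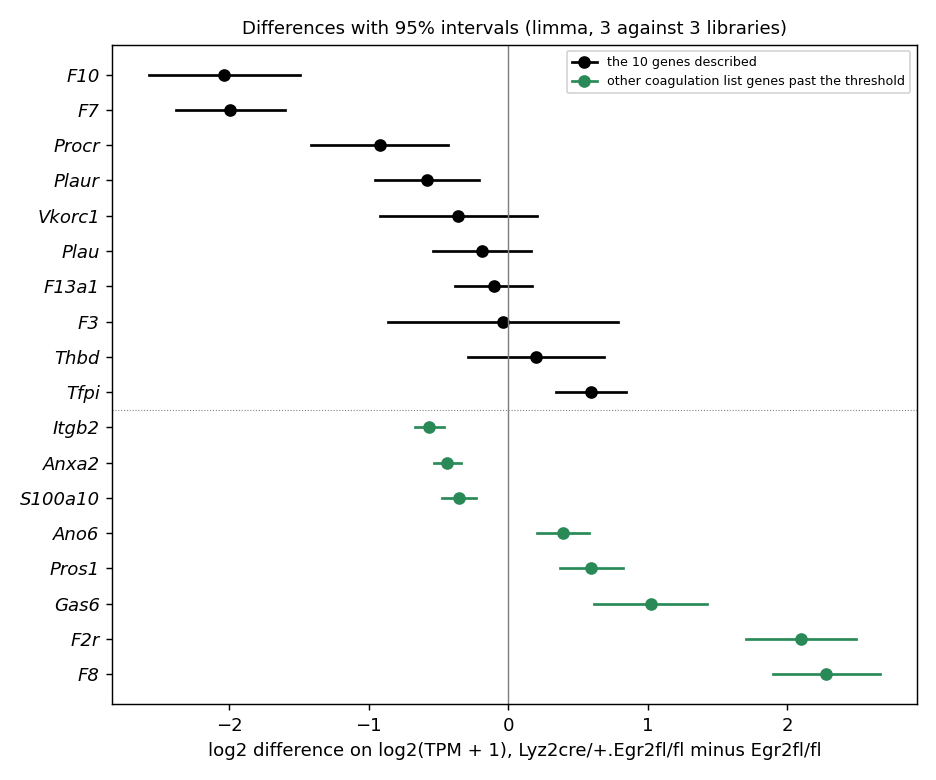
Difference in log2(TPM + 1), Lyz2cre/+.Egr2fl/fl minus Egr2fl/fl, with its 95% interval, for the 10 genes (black) and for the 8 list genes that passed the test (green). F8 (2.28) and F2r (2.09) lie farthest to the right and F10 (-2.04) and F7 (-1.99) farthest to the left, while F13a1 (-0.10) and Plau (-0.19) have intervals that include 0.

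The largest list differences in the other direction were F8 and F2r. F8, which encodes factor VIII, the cofactor in factor X activation that liver sinusoidal endothelium makes, was at 1.11, 1.21 and 1.14 TPM in Egr2fl/fl and rose to 9.50, 10.6 and 8.45 TPM, 8.21-fold, by 2.28 ± 0.16 (limma, adjusted p = 0.000579). F2r, the thrombin receptor PAR-1 and the only listed gene of 4 in its family, rose from 4.24, 2.53 and 3.26 TPM to 17.6, 18.1 and 16.3 TPM, 5.18-fold, by 2.09 ± 0.17 (limma, adjusted p = 0.000969). Neither overlapped, and both passed without any 1 library. Both are expressed by endothelium, whose 20 markers rose in the same libraries by a ratio of sums of 4.63, and the part of these transcripts in the F8 and F2r differences was not tested. Vwf, the von Willebrand factor gene of endothelium and platelets, was at 1.94 to 2.95 TPM and 1.68 to 2.13 TPM, a difference of -0.31 ± 0.22 (limma, adjusted p = 0.522). Vwf is not among the 20 endothelial markers, and its relation to the endothelial transcripts was not tested.

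Of 11 genes of the vitamin K cycle and of Gla proteins, 7 were listed and 1 passed. Gas6, a vitamin K-dependent ligand of TAM receptors, rose from 15.7, 16.1 and 23.3 TPM to 44.1, 36.5 and 33.2 TPM, by 1.02 ± 0.17 (limma, adjusted p = 0.0163), with separate groups. It did not pass without Egr2fl/fl replicate 1 or 2 or without Lyz2cre/+.Egr2fl/fl replicate 1 (limma, adjusted p 0.0578 to 0.0644). The part of the endothelial and Kupffer cell transcripts, higher in the same libraries, in the Gas6 difference was not tested. Ggcx, the carboxylase that modifies factors VII and X, differed by -0.10 ± 0.16 (95% interval -0.47 to 0.28). Vkorc1l1, the paralogue of Vkorc1, differed by -0.12 ± 0.09 (95% interval -0.33 to 0.09). Neither secretion receptor gene for factors V and VIII passed, Lman1 differing by 0.01 and Mcfd2 by 0.20 ± 0.06 (limma, adjusted p = 0.115).

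Of 14 vessel wall and platelet genes, 12 were listed and 2 were higher, F8 and Ano6. Ano6, the scramblase that exposes the phosphatidylserine on which factor X is activated, rose from 149.8, 144.9 and 122.9 TPM to 181.1, 183.9 and 180.7 TPM, by 0.39 ± 0.08 (limma, adjusted p = 0.0335). It passed only without Egr2fl/fl replicate 1 or 3 among the leave-outs, with limma adjusted p 0.0678 to 0.112 without any of the others. The part of the endothelial and Kupffer cell transcripts, higher in the same libraries, in the Ano6 difference was not tested. Thbs1, thrombospondin 1, differed by -0.34 ± 0.13 (limma, adjusted p = 0.215). Tgm2, a transglutaminase, Entpd1, which hydrolyses extracellular ATP and ADP, the disulfide isomerase genes P4hb and Pdia3, and Furin, a proprotein convertase, all differed by between -0.02 and 0.08 and did not pass.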

How the data were processed

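Bulk libraries of sorted liver macrophages were assigned to the genotype named in each title, 3 per genotype. Per the labels and the study's methods, the authors trimmed reads with Trimmomatic 0.39.0, mapped them with HISAT2 2.2.1 on GRCm38 (mm10), discarded PCR duplicates, obtained gene counts from featureCounts 2.0.1 and deposited TPM values. The labels name a directional kit, which the methods give for another sort, and the strand setting of the counting was not given in the sources used here. TPM is relative to the library total, so a gene can be lower because others are higher.

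For the 13777 of 13886 genes averaging 1 TPM or more, genotypes were compared by limma 3.58.1 in R 4.3.3 on the log2(TPM + 1) scale (trend, 2-sided, Benjamini-Hochberg, threshold 0.05), tested on simulated data. For low genes this scale gives too small a change, and folds quoted are ratios of mean TPM. Whole reads recovered from TPM steps came out for all 13886 genes and are lower bounds. The 10 genes and all lists were chosen with earlier results of these data known. Named were the 10 genes, Egr2, list genes that passed, others with a mean of at least 100 TPM or a set role, neighbours and defining markers, except 1 list gene that is not reported here. Replicate numbers are those of the titles, and the deposited name of Egr2fl/fl replicate 3 carries another number than its title. No source states a pairing. Libraries with the same title number did not deviate together (r = -0.026, 0.065 and -0.006), so the numbers were not used as a block. Alternatives were 3 pseudocounts, 2 filters, 2 rescalings, limma settings, a stricter threshold, the block, voom on recovered reads and each library left out. Neighbour coordinates came from GENCODE vM21 and promoters from RefSeq on GRCm38.p6.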

Additional observations from a re-analysis of the deposited data

How the results depend on the processing

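F10 and F7 stayed lower and past the threshold under all 18 alternatives. These refit the same 6 libraries and so do not undo the choice of both genes with this comparison known. Of the 10 genes, 1 was higher, and this count was 0 with the replicate block, 0 at an adjusted p below 0.01 and 0 to 1 when a library was left out. Of the coagulation list, 5 genes were higher, with 2 under the replicate block, 2 at an adjusted p below 0.01 and 2 to 5 when a library was left out, the low counts being 3 without Egr2fl/fl replicate 2, 2 without Lyz2cre/+.Egr2fl/fl replicate 1 and 3 without Lyz2cre/+.Egr2fl/fl replicate 3. Counts of lower genes stayed at 2 to 4 for both groups of genes. No result reversed. Tfpi lost its call in 7 of 18 alternatives and Procr in 11, and the cause was not tested. The block removed the calls of Tfpi, Procr, Pros1, Gas6 and Ano6, and same-numbered libraries did not deviate together. Plaur passed with voom on recovered reads, at -0.62, and without Lyz2cre/+.Egr2fl/fl replicate 2. Over all genes 603 were higher and 257 lower, with 243 to 776 and 98 to 382 under the alternatives. Median-of-ratios scaling moved the median of all genes from 0.04 to -0.01. Of the 10 genes, depth limits F3 and Vkorc1 most, at 38 and 131 reads over the 6 libraries.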

Other observations

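Serpinb2 and Nqo1 were singled out after their values were seen. Serpinb2 encodes the urokinase inhibitor PAI-2. In Egr2fl/fl its level was 0.859 TPM in replicate 1 and 0.186 TPM in replicate 2, and it was listed at 0 in replicate 3. In Lyz2cre/+.Egr2fl/fl it was at 8.61, 1.27 and 0.166 TPM, so 1 library carried most of its level and the groups overlapped. The difference was 1.18 ± 0.75 (limma, adjusted p = 0.462), on 64 reads over the 6 libraries. Nqo1, a quinone reductase that can reduce vitamin K, had separate groups, at 8.35, 5.67 and 6.12 TPM in Egr2fl/fl and 3.73, 5.06 and 3.74 TPM in Lyz2cre/+.Egr2fl/fl, and also did not pass, with a difference of -0.57 ± 0.19 (limma, adjusted p = 0.157).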
